A study of Mus musculus with 12 samples.

Results

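Satellite cells are the resident stem cells of skeletal muscle, and 7 genes of their surface and of their resting state were followed here in a muscle tumour driven by YAP1 and in its regression. They were the syndecans Sdc3 and Sdc4, the receptors Megf10 and Calcr, the adhesion molecules Vcam1 and Cd34, and the signalling inhibitor Spry1, chosen by name from 19937 genes measured. Each had 1 probe set on the array, and none shared a probe set with another gene. In a filter that kept genes above the median level of all genes, 6 of the 7 passed and Calcr did not.

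The comparison addresses how a muscle tumour that depends on YAP1, the transcriptional co-activator at the end of Hippo signalling, changes once YAP1 is switched off. RNA was measured on 12 arrays, 3 for each of 4 groups, and a level is given as the log2 of the deposited intensity. All groups carried Myf5Cre, R26-LSL-rtTA and Col1a-Teto-hYAP1 S127A on a C57BL/6 background. In this design doxycycline switches on a mutant human YAP1 in cells with a Myf5 history, which covers most of the muscle lineage and is not restricted to satellite cells. Donor mice were kept on doxycycline for 4 weeks, after which interstitial hindlimb cells were grafted into the gastrocnemius of NOD/SCID hosts given doxycycline. These hosts lack mature T and B cells and keep macrophages, vessels and muscle of their own, all of which a tumour sample can hold. TUM was the tumour at day 0 of doxycycline removal, OFF3 and OFF6 were tumours 3 and 6 days after it, and CTL was hindlimb muscle of uninduced mice with the same alleles. CTL thus also differed from the tumours in transplantation, in host and in doxycycline. The labels used here give no age, and do not say whether replicates came from separate animals, so the p-values speak only of the spread among these samples, which may be technical.

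A satellite cell lies between a muscle fibre and its basal lamina and expresses Pax7. At rest it is held out of the cell cycle by signals that include Notch, the calcitonin receptor and Sprouty1. After injury it enters the cycle, accumulates the Myf5 and Myod1 proteins and gives rise to myoblasts that fuse into fibres. Several surface molecules used to isolate these cells are also made by other cells of muscle, Vcam1 and Cd34 by vessel and stromal cells among them, so a bulk sample does not say which cell made the RNA. Fewer cells of a type and less RNA per cell cannot be told apart in any result below.

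The fibre genes Ckm, Acta1, Myh4 and Myh1 were higher in CTL than in TUM, and all 12 muscle fibre markers were lower in TUM than in CTL. Against TUM, 10 of the 12 rose and 0 fell in OFF3 (median 1.07) and likewise in OFF6 (median 1.04). Their summed intensity was 28389 to 29951 in TUM, 46340 to 59777 in OFF3, 49321 to 51586 in OFF6 and 93989 to 96492 in CTL. Of the satellite cell factors, Pax7 had a mean log2 intensity of 7.13 in TUM, against 7.51 in CTL (difference -0.38 ± 0.08 SE, adjusted p = 0.00122). Myf5 was 3.45 ± 0.08 higher in TUM than in CTL, and Myod1 0.52 ± 0.17 higher (adjusted p = 3.78e-12 and 0.0162). On the first principal component, with 80.1% of the variance, CTL (96.8 to 100.9) stood apart from all tumours (-50.1 to -19.1). OFF6 replicate 2 correlated better with the OFF3 arrays (mean r across genes 0.9952) than with its own group (0.9911). For the 7 genes, its value lay within the OFF3 range in 4, against 2 for OFF6 replicate 1 and 1 for OFF6 replicate 3. Where leaving this array out changed a call among the 7 genes, the value without it is also given.

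All 7 genes differed between TUM and CTL, 5 higher and 2 lower in TUM. The test was limma across all genes, with an adjusted p under 0.05, and 76.2% of all genes passed it there, 30.3% higher and 45.9% lower. In OFF3 against TUM 5 of the 7 changed, 2 rising and 3 falling, where 29.4% of all genes passed, 13.4% higher and 16% lower. In OFF6 against TUM 6 changed, 2 rising and 4 falling, where 31.5% passed, 14.9% higher and 16.6% lower. Without OFF6 replicate 2 these day 6 counts were 1 rising and 5 falling. With each array left out in turn, 4856 to 6886 of all genes passed in OFF6 against TUM, beside 6279 with all arrays. Between OFF6 and OFF3, Megf10 (higher) and Vcam1 (lower) passed, where 10.4% of all genes did, 6.05% higher and 4.38% lower. Without OFF6 replicate 2, 4 of the 7 passed there, Megf10 and Spry1 higher and Vcam1 and Cd34 lower in OFF6, and the genes called in all numbered 4874, against 2080 with it.

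Against CTL, 4 of the 7 were higher and 1 lower in OFF3, where 69.8% of all genes passed, 28.4% higher and 41.4% lower. In OFF6, 3 were higher and 1 lower than in CTL, where 64.2% passed, 28.1% higher and 36.1% lower. The arrays of the groups did not overlap for 6 of the 7 genes in OFF3 against TUM (44.8% of all genes), 6 in OFF6 against TUM (48.5%), 7 in TUM against CTL (82.7%), 5 in OFF3 against CTL (72.4%), 4 in OFF6 against CTL (68.5%) and 2 in OFF6 against OFF3 (21.2%). The median change of the 7 was 0.01 in OFF3 and -0.42 in OFF6 against TUM, beside 0.02 and 0.05 over all genes, and individual genes went opposite ways. OFF3 and OFF6 were both set against the same TUM arrays, and the 3 tumour groups against the same CTL arrays, so these comparisons are not independent of each other.

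**Figure D1:**
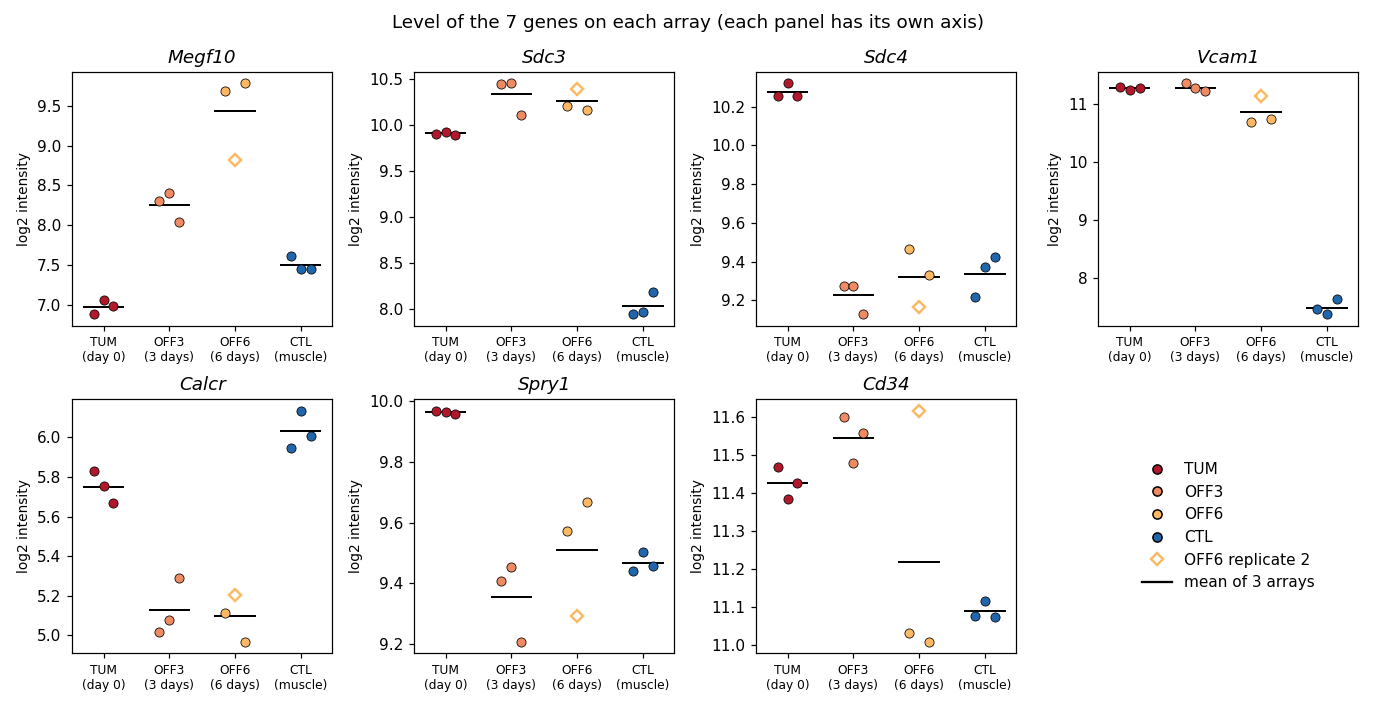
Log2 intensity (y axis, a separate scale in each panel) of the 7 genes on each of the 12 arrays, by group (x axis); points are arrays, lines are means of 3, and the open diamond is OFF6 replicate 2. Megf10 was highest in OFF6, Sdc4 and Spry1 were highest in TUM, Sdc3 and Vcam1 were far lower in CTL than in any tumour, and the Cd34 values of OFF6 lay apart from each other.

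The syndecans are cell surface proteins with heparan sulphate chains that bind growth factors and matrix, and Sdc3 and Sdc4 mark satellite cells and myoblasts. Sdc4, also a component of focal adhesions, had log2 intensities of 10.25, 10.32 and 10.26 in TUM, 9.27, 9.28 and 9.13 in OFF3, 9.46, 9.17 and 9.33 in OFF6, and 9.22, 9.37 and 9.42 in CTL. Its TUM arrays lay above all others, and the remaining 3 groups overlapped. It fell 2.07-fold in OFF3 against TUM (-1.05 ± 0.08, adjusted p = 1.46e-06) and 1.94-fold in OFF6 against TUM (-0.96 ± 0.08, adjusted p = 2.48e-06), and was 1.92-fold higher in TUM than in CTL (0.94 ± 0.08, adjusted p = 3.92e-07).

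Off doxycycline, the Sdc4 signal was close to that of control muscle. The difference from CTL was -0.11 in OFF3 (95% confidence interval -0.29 to 0.07, adjusted p = 0.238) and -0.02 in OFF6 (-0.20 to 0.16, adjusted p = 0.855). With arrays centred on their median or with quantile normalisation, Sdc4 was called lower in OFF3 than in CTL (-0.29 and -0.23, adjusted p = 0.0101 and 0.0169, within 0.0101 to 0.531 over all alternatives).

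Sdc3, a syndecan known mainly from the nervous system and from satellite cells, had log2 intensities of 9.90, 9.93 and 9.90 in TUM, 10.45, 10.45 and 10.11 in OFF3, 10.21, 10.39 and 10.17 in OFF6, and 7.94, 7.96 and 8.18 in CTL. Every tumour array lay above every control array, and every OFF3 and OFF6 array above every TUM array. Sdc3 was 3.68-fold higher in TUM than in CTL (1.88 ± 0.10, adjusted p = 2.46e-09). It rose a further 1.35-fold in OFF3 against TUM (0.43 ± 0.10, adjusted p = 0.00581).

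In OFF6 against TUM Sdc3 was 0.35 ± 0.10 higher (adjusted p = 0.0179). The call did not hold without OFF6 replicate 2 (0.28, adjusted p = 0.0552), TUM replicate 1 (0.35, 0.0542) or TUM replicate 3 (0.34, 0.056), within 0.000898 to 0.056 over all alternatives. Sdc3 and Sdc4 thus moved in opposite directions once doxycycline was removed, each by its own test. The whole family of syndecans shows no common course. Sdc1, known from epithelia and plasma cells, was 2.21 ± 0.09 higher in TUM than in CTL and fell by 0.47 (± 0.09) in OFF6 against TUM. Sdc2, a syndecan of mesenchymal cells, was 1.95 ± 0.08 higher in TUM than in CTL and rose by 0.44 ± 0.08 in OFF3, with a day 6 difference from TUM of -0.01 ± 0.08 (adjusted p = 0.915).

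Spry1, which restrains signalling from growth factor receptors to the kinase ERK and which satellite cells need to return to rest, had log2 intensities of 9.97, 9.97 and 9.96 in TUM, 9.41, 9.45 and 9.21 in OFF3, 9.57, 9.29 and 9.67 in OFF6, and 9.44, 9.50 and 9.46 in CTL. As for Sdc4, the TUM arrays lay above all others and the remaining 3 groups overlapped. Spry1 fell 1.53-fold in OFF3 against TUM (-0.61 ± 0.09, adjusted p = 0.000284) and 1.37-fold in OFF6 against TUM (-0.46 ± 0.09, adjusted p = 0.0021), and was 1.41-fold higher in TUM than in CTL (0.50 ± 0.09, adjusted p = 0.00034).

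The Spry1 difference from CTL was -0.11 in OFF3 (95% confidence interval -0.31 to 0.09) and 0.04 in OFF6 (-0.16 to 0.24). With arrays centred on their median or with quantile normalisation Spry1 was called lower in OFF3 than in CTL (-0.28 and -0.21, adjusted p = 0.0163 and 0.0498, within 0.0163 to 0.729 over all alternatives). With array weights it was called higher in OFF6 than in CTL (0.15, adjusted p = 0.0499, within 0.0499 to 0.926 over all alternatives). Between OFF6 and OFF3 the Spry1 difference was 0.15 ± 0.09 (adjusted p = 0.346). It was called higher in OFF6 without OFF6 replicate 2 (0.26, adjusted p = 0.0219) and with array weights (0.18, adjusted p = 0.00786), within 0.00786 to 0.777 over all alternatives.

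Among the relatives of Spry1, Spred2, also an inhibitor of the ERK pathway, was 1.41 ± 0.12 higher in TUM than in CTL and fell by 0.50 in OFF3 and 0.70 in OFF6 against TUM (± 0.12 each). Spred1 was 2.04 ± 0.11 higher in TUM than in CTL and fell by 0.33 (± 0.11) in OFF6 (adjusted p = 0.0315). In OFF3 Spred1 differed from TUM by -0.18 ± 0.11 (adjusted p = 0.25). Spry2, another Sprouty protein, was 0.47 ± 0.10 higher in TUM than in CTL. It rose further, by 0.49 ± 0.10 in OFF3 and by 0.38 ± 0.10 in OFF6 against TUM. Spry4, unlike Spry1, was lower in TUM than in CTL (-0.37 ± 0.12, adjusted p = 0.0157). Spry4 differed from TUM by -0.26 ± 0.12 in OFF3 (adjusted p = 0.147) and by -0.01 ± 0.12 in OFF6 (adjusted p = 0.948). The differences between Spry1 and these genes were not tested.

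Sdc4 and Spry1 were both highest in TUM and did not differ from CTL past the threshold off doxycycline, except under the alternatives given above, and Sdc3 is the syndecan that went the other way. The 250 bases before the start of each of these genes (RefSeq, GRCm38.p6, written 5′ to 3′ on the gene's strand) are shown so that their promoters can be compared. Capitals mark GGAATG, the core that TEAD factors, the DNA-binding partners of YAP, recognise, searched on both strands as GGAATG or CATTCC.
Spry1, chr3:37639697-37639946, plus strand: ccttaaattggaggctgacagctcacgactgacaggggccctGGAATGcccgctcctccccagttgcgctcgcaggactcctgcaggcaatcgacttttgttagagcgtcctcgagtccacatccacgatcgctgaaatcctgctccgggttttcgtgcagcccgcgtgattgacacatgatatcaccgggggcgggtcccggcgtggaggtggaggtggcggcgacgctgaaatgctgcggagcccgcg
Sdc4, chr2:164443189-164443438, minus strand: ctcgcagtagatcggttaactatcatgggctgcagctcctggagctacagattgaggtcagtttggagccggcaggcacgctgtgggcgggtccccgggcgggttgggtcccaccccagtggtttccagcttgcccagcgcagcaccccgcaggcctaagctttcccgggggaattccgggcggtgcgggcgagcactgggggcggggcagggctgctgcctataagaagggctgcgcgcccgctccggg
Sdc3, chr4:130792287-130792536, plus strand: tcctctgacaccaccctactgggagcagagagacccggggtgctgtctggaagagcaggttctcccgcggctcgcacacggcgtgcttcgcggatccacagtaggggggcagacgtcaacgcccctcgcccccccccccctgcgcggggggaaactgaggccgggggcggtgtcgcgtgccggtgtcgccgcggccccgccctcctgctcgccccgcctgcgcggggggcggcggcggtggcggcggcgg

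Spry1 held 1 such match, which begins 208 bases before the gene's start, and 12.6% of 32851 promoter windows of this length held at least 1. The windows of Sdc4 and Sdc3 held none, nor did those of Calcr and Cd34, and promoter windows were matched for 5 of the 7 genes. The motifs TGGGAA (for RBPJ) and CAGCTG (an E-box) were searched in the same windows. Neither was found in these 5 genes, while 21.6% and 13% of all promoter windows held them. GC content was 62.4% in the Spry1 window, 68% in that of Sdc4 and 76.4% in that of Sdc3. These matches describe letters within a short window only.

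Megf10, a receptor with EGF-like repeats that acts in phagocytosis and, in myoblasts, in proliferation and migration, gave the largest change of the 7 genes after doxycycline removal. Its log2 intensities were 6.88, 7.06 and 6.98 in TUM, 8.31, 8.40 and 8.03 in OFF3, 9.69, 8.82 and 9.78 in OFF6, and 7.61, 7.45 and 7.44 in CTL. No pair of groups overlapped, with TUM lowest, then CTL, OFF3 and OFF6. In TUM each value lay below the median over genes of its array (7.12, 7.14 and 7.12). Whether the Megf10 signal in TUM stood above background was not tested. Megf10 rose 2.42-fold in OFF3 against TUM (1.27 ± 0.20, adjusted p = 0.000355) and 5.48-fold in OFF6 against TUM (2.45 ± 0.20, adjusted p = 1.29e-06).

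Between OFF6 and OFF3 Megf10 was 2.27-fold higher in OFF6 (1.18 ± 0.20, adjusted p = 0.00492), and 1.49 higher on the log2 scale without OFF6 replicate 2. This call was lost in a model of only the 6 arrays compared (adjusted p = 0.0906, within 6.25e-08 to 0.0906 over all alternatives), in which 30 genes passed in all. Megf10 ended 3.80-fold above control muscle in OFF6 (1.93 ± 0.20, adjusted p = 2.23e-06). In OFF3 it was 0.75 ± 0.20 above CTL (adjusted p = 0.00504), a call lost with quantile normalisation (0.48, adjusted p = 0.0573, within 1.61e-06 to 0.0573 over all alternatives). Before doxycycline removal it was 0.53 ± 0.20 lower in TUM than in CTL (adjusted p = 0.0283). This did not pass without TUM replicate 1 (-0.48, adjusted p = 0.0807), TUM replicate 3 (-0.53, 0.0607) or CTL replicate 1 (-0.47, 0.0854), within 0.000164 to 0.0854 over all alternatives. With arrays left out in turn the estimate stayed at -0.57 to -0.47. Its SE is pooled over groups of unequal spread, with an SD of 0.09 in TUM and in CTL, 0.19 in OFF3 and 0.53 in OFF6.

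The other Megf genes moved less off doxycycline. Megf9 rose by 0.53 ± 0.10 in OFF3 and 0.57 ± 0.10 in OFF6 against TUM, and Pear1, a relative of Megf10 found on platelets and endothelium, by 0.62 ± 0.07 and 0.50 ± 0.07. Megf11, the closest relative of Megf10, rose by 0.41 ± 0.07 in OFF6 (adjusted p = 0.000466) and differed by 0.18 ± 0.07 in OFF3 (adjusted p = 0.0605). Like Megf10, these genes and Megf6 were lower in TUM than in CTL. The differences were -0.42 ± 0.10 for Megf9, -0.47 ± 0.07 for Megf11, -0.58 ± 0.17 for Megf6 and -0.71 ± 0.07 for Pear1. Pear1 moved with the endothelial markers, 13 of 14 of which rose in OFF3 against TUM and 8 of 14 in OFF6. Their part in these results was not tested. Of 6 measured markers of Schwann cells, the glia of peripheral nerve, 1 rose in OFF3 and 1 in OFF6. Their summed intensity was 559 to 601 in TUM, 1008 to 1026 in OFF3, 1214 to 1743 in OFF6 and 815 to 839 in CTL. Megf10 shared this order of groups with the sum, but most of the single markers did not follow it. Against CTL, 1 was higher and 4 lower in OFF3 (median -0.34), and 1 higher and 3 lower in OFF6 (median -0.29). Megf10 was above CTL in both. The defining marker Sox10 differed from TUM by 0.09 ± 0.10 in OFF3 and 0.13 ± 0.10 in OFF6 (adjusted p = 0.616 and 0.371). Muscle fibre markers also rose off doxycycline, as given above, and their sum was highest in CTL. The part of Schwann cells or of muscle fibres in the Megf10 result was not tested.

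Calcr, the calcitonin receptor, helps to hold adult satellite cells at rest and in their niche, and is also a marker of osteoclasts. Its log2 intensities were the lowest of the 7 probe sets: 5.83, 5.75 and 5.67 in TUM, 5.02, 5.08 and 5.29 in OFF3, 5.11, 5.21 and 4.97 in OFF6, and 5.95, 6.13 and 6.01 in CTL. The CTL arrays lay above TUM, and TUM above both groups off doxycycline, which overlapped each other. Calcr fell 1.54-fold in OFF3 against TUM (-0.62 ± 0.09, adjusted p = 0.000179) and 1.57-fold in OFF6 against TUM (-0.65 ± 0.09, adjusted p = 0.000101). OFF6 stood 1.91-fold below CTL (-0.94 ± 0.09, adjusted p = 9.82e-07).

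The step from CTL was smaller in the tumour still on doxycycline. Calcr was 0.28 ± 0.09 lower in TUM than in CTL (adjusted p = 0.0119), a call lost with quantile normalisation (-0.07, adjusted p = 0.543) and without TUM replicate 3 (-0.24, 0.0521) or CTL replicate 2 (-0.23, 0.0513), within 0.000865 to 0.543 over all alternatives. Calcr was the 1 member below the median level of all genes, and its falls against TUM passed in all 21 alternatives that included it. Its linear intensity ran from 31.3 (OFF6 replicate 3) to 70.3 (CTL replicate 2), below the array medians of 86.74 to 93.05. Whether this signal stood above background was not tested.

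Osteoclast markers moved with Calcr off doxycycline and against it in control muscle. Of 11 such markers 7 fell and 1 rose in OFF3 against TUM, 10 fell in OFF6, and 9 were higher and 2 lower in TUM than in CTL. Their summed intensity was 11743 to 11992 in TUM, 3816 to 4184 in OFF3, 3160 to 4296 in OFF6 and 1986 to 2169 in CTL. The defining markers Acp5, Ctsk, Atp6v0d2 and Oscar, which act in bone resorption and osteoclast formation, fell by 0.96, 1.43, 3.21 and 3.14 in OFF3 against TUM. CTL had the highest Calcr and the lowest osteoclast sum. The part of osteoclast-type cells in the Calcr result was not tested. The Ramp genes encode accessory proteins of the calcitonin receptor. Ramp1 and Ramp2, like Calcr, were lower in TUM than in CTL, by 1.94 ± 0.16 and 1.24 ± 0.06. Off doxycycline, where Calcr fell, Ramp2 rose by 0.64 ± 0.06 in OFF3 and 0.54 ± 0.06 in OFF6 against TUM. Ramp1 rose by 0.73 ± 0.16 in OFF3 and differed from TUM by 0.23 ± 0.16 in OFF6 (adjusted p = 0.321). Ramp3 differed from TUM by -0.14 ± 0.12 in OFF3 and 0.19 ± 0.12 in OFF6 (adjusted p = 0.467 and 0.262).

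Vcam1, a cell adhesion molecule of satellite cells, activated endothelium, stroma and some macrophages, gave the largest difference of the 7 genes between tumour and control muscle. Its log2 intensities were 11.30, 11.25 and 11.27 in TUM, 11.36, 11.27 and 11.23 in OFF3, 10.69, 11.15 and 10.74 in OFF6, and 7.47, 7.38 and 7.64 in CTL. All tumour arrays lay far above all control arrays. Vcam1 was 13.7-fold higher in TUM than in CTL (3.78 ± 0.11, adjusted p = 1.24e-11), 13.8-fold in OFF3 (3.79 ± 0.11) and 10.3-fold in OFF6 (3.36 ± 0.11).

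Vcam1 did not change past the threshold 3 days after doxycycline removal and was lower at 6 days. OFF3 and TUM overlapped, with a difference of 0.01 (95% confidence interval -0.22 to 0.25, adjusted p = 0.96). OFF6 lay below TUM by 0.42 ± 0.11 on the log2 scale (1.34-fold, adjusted p = 0.0102), and by 0.56 without OFF6 replicate 2. OFF6 was also lower than OFF3 (-0.43 ± 0.11, adjusted p = 0.0279). That call was lost in a model of only the 6 arrays compared (adjusted p = 0.145) and without OFF3 replicate 1 (-0.39, 0.0932), OFF3 replicate 2 (-0.44, 0.0756), OFF6 replicate 1 (-0.34, 0.132) or OFF6 replicate 3 (-0.37, 0.136), within 3.36e-06 to 0.145 over all alternatives.

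Across tumour and control muscle, macrophage markers differed in the same direction as Vcam1 and endothelial markers in the opposite one. Of 12 macrophage markers 11 were higher and 1 lower in TUM than in CTL, and their summed intensity was 14212 to 14415 in TUM, 14790 to 16747 in OFF3, 9938 to 15482 in OFF6 and 1980 to 2226 in CTL. Within OFF6, replicate 2 had the highest macrophage sum and the highest Vcam1. All 14 endothelial markers were lower in TUM than in CTL, with sums of 4641 to 4802 in TUM, 6647 to 7209 in OFF3, 5400 to 6218 in OFF6 and 8904 to 9161 in CTL. The macrophages' part in the Vcam1 result was not tested. Itga4, a subunit of the integrin that binds Vcam1, was 0.90 ± 0.12 lower in TUM than in CTL and rose by 0.87 ± 0.12 in OFF3 and 0.82 ± 0.12 in OFF6 against TUM.

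Cd34, a sialomucin of resting satellite cells, endothelium, stromal progenitors and blood progenitors, varied least of the 7 genes. Its log2 intensities were 11.47, 11.39 and 11.43 in TUM, 11.60, 11.48 and 11.56 in OFF3, 11.03, 11.62 and 11.01 in OFF6, and 11.08, 11.12 and 11.08 in CTL. OFF6 replicates 1 and 3 lay below all CTL arrays, while OFF6 replicate 2 had the highest value of all 12 arrays. Cd34 differed from TUM by 0.12 ± 0.13 in OFF3 (adjusted p = 0.572) and by -0.21 ± 0.13 in OFF6 (adjusted p = 0.247).

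The day 6 result depended on that array. Without OFF6 replicate 2, Cd34 was 0.41 lower in OFF6 than in TUM (adjusted p = 0.000195) and 0.53 lower than in OFF3 (adjusted p = 5.87e-05), within 3.32e-05 to 0.604 and 1.7e-05 to 0.441 over all alternatives. The difference of OFF6 from CTL was 0.13 ± 0.13 with it and -0.07 without it. Cd34 was 0.34 ± 0.13 higher in TUM than in CTL (adjusted p = 0.0276) and 0.46 ± 0.13 higher in OFF3 than in CTL (adjusted p = 0.00649). The TUM call was lost with arrays centred on their median (0.20, adjusted p = 0.134) and without TUM replicate 1 (0.32, 0.0742), TUM replicate 3 (0.34, 0.061), CTL replicate 1 (0.33, 0.0636) or CTL replicate 3 (0.33, 0.0633), within 0.000102 to 0.134 over all alternatives. With arrays left out in turn the estimate stayed at 0.32 to 0.36. Its SE is pooled over groups of unequal spread, with an SD of 0.04 in TUM, 0.02 in CTL, 0.06 in OFF3 and 0.34 in OFF6.

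The same array stood apart in markers of other cells that can carry Cd34. Its summed intensity of fibroblast and progenitor markers was 24529, against 17142 and 16642 in OFF6 replicates 1 and 3, with 13246 to 13507 in TUM, 22894 to 24012 in OFF3 and 16207 to 17121 in CTL. Of 13 such markers, 9 rose and 1 fell in OFF3 against TUM, and 4 were higher and 8 lower in TUM than in CTL. For 8 markers of mast cells and blood progenitors the sums were 1921 to 1989 in TUM, 2926 to 4366 in OFF3, 1710 to 4117 in OFF6 and 855 to 940 in CTL, and 5 rose and 1 fell in OFF3 against TUM. The endothelial sum of OFF6 replicate 2 was 6218, against 5527 and 5400 in OFF6 replicates 1 and 3. All 14 endothelial markers were lower in TUM than in CTL, while Cd34 was higher. The part of these cell types in the Cd34 result was not tested.

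**Figure D2:**
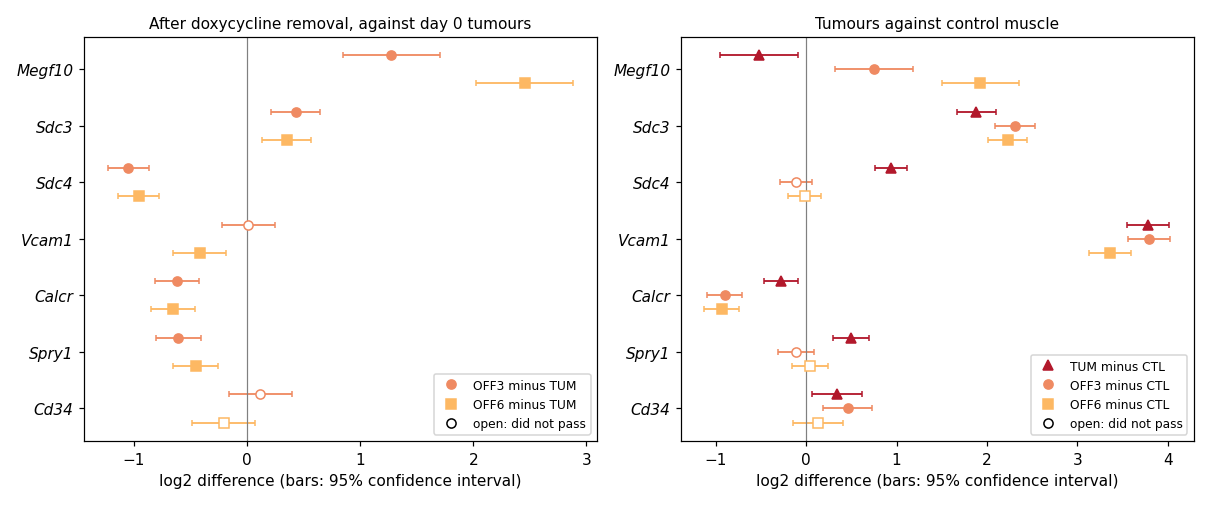
Log2 difference (x axis) of each of the 7 genes (y axis) in OFF3 and OFF6 against TUM (left) and in the 3 tumour groups against CTL (right); bars are 95% confidence intervals from the limma fit, and open symbols did not pass. Megf10 and Sdc3 rose and Sdc4, Calcr and Spry1 fell after doxycycline removal, and Vcam1 fell at 6 days only. The intervals of Sdc4 and Spry1 against CTL spanned 0 at 3 and 6 days.

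**Figure D3:**
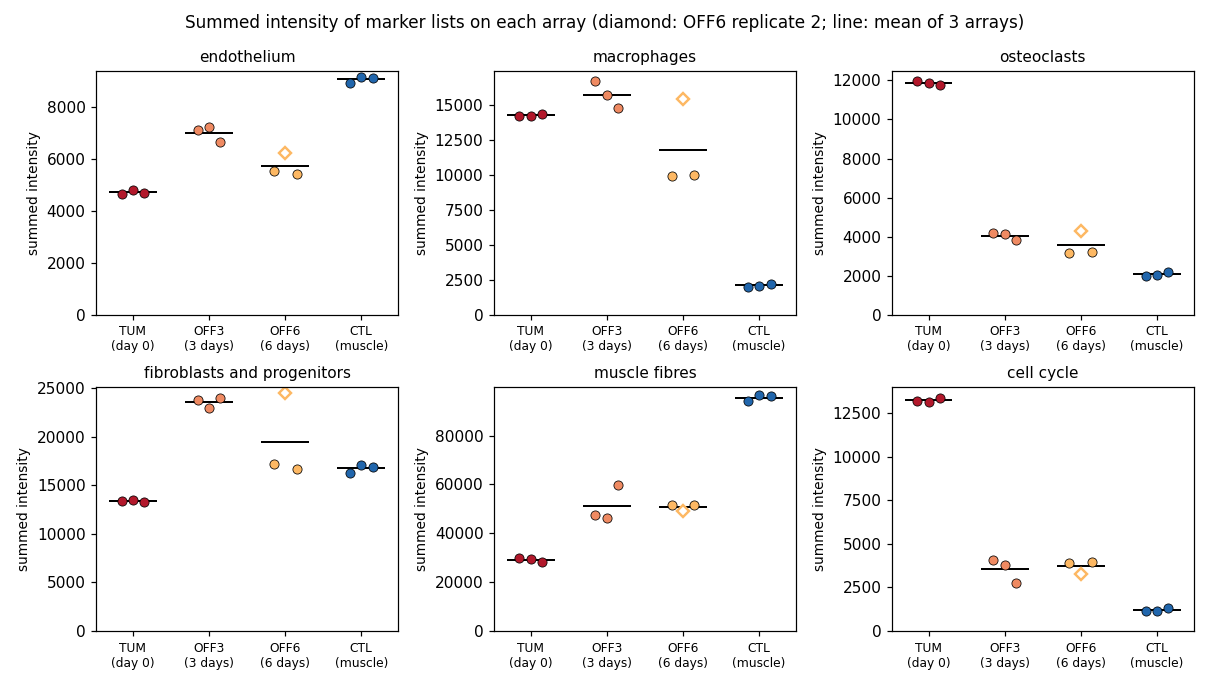
Summed linear intensity (y axis, from 0) of 6 marker lists on each array, by group (x axis); lines are means of 3 and the diamond is OFF6 replicate 2. Macrophage sums were 1980 to 2226 in CTL and at least 9938 in every tumour, and osteoclast and cell cycle sums were highest in TUM. OFF6 replicate 2 stood above its group in the macrophage, fibroblast and osteoclast lists, and also in endothelial sums.

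The order of the 4 groups differed between genes. Megf10 ran OFF6, OFF3, CTL, TUM from high to low, and each neighbouring pair differed past the threshold, except under the alternatives given above for each pair. Sdc3 ran OFF3, OFF6, TUM, CTL, where OFF3 and OFF6 did not differ past it (adjusted p = 0.709), except with array weights (-0.25, adjusted p = 0.00285, within 0.00285 to 0.945 over all alternatives). Vcam1 and Cd34 both ran OFF3, TUM, OFF6, CTL. In Vcam1, TUM and OFF3 did not differ past it, and in Cd34 neither TUM and OFF3, nor OFF6 and TUM, nor OFF6 and CTL (adjusted p = 0.377). Calcr ran CTL, TUM, OFF3, OFF6, the last pair not past it (adjusted p = 0.886). Alternatives given above also changed the call of CTL and TUM in Calcr, and of OFF6 and TUM in Sdc3 and Cd34. Sdc4 and Spry1 had TUM at the top, and below it no pair of the other groups passed, except under the alternatives given above for each gene.

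The signals most like each gene over the 12 arrays are given by Pearson r, as a description of these arrays, which share 1 normalisation. They were sought among 4113 named genes with an SD of at least 0.5. Megf10 was matched most closely by Armh4 (0.9935), Arpp21 (0.9932) and Map1a (0.9847). Sdc3 was matched by Pip4k2a (0.9986), Col8a1 (0.9979) and Ifit2 (0.9976). Vcam1 was matched by Rbm3 (0.9995), Rab31 (0.9987) and the macrophage marker Cd68 (0.9985). In Vcam1 and Sdc3 the CTL arrays lie far from all tumour arrays, and r reflects that distance.

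Sdc4 was matched by Pole (0.9875), the catalytic subunit of a replicative DNA polymerase, Gen1 (0.9818) and Igf2bp1 (0.9792), and Spry1 by Gpha2 (0.9525), Troap (0.944) and Pole (0.9425). Calcr was matched by Tinagl1 (0.9678), BC052040 (0.9637) and Slc4a4 (0.9525), and Cd34 by Gulp1 (0.9522), St8sia4 (0.9263) and Snora33 (0.9261). All 11 measured cell cycle markers fell in OFF3 and in OFF6 against TUM and were higher in TUM than in CTL, and their sums were 13124 to 13393 in TUM, 2784 to 4075 in OFF3, 3301 to 3960 in OFF6 and 1146 to 1316 in CTL. In OFF3 and OFF6, where Sdc4 and Spry1 overlapped CTL, the cell cycle sums stayed above all CTL arrays. The part of cycling cells in these results was not tested.

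Over the 9 tumour arrays alone, among 1079 genes, the closest signals changed. Megf10 was matched by Npnt (0.9973), a matrix protein, Chrng (0.9966), the embryonic subunit of the muscle acetylcholine receptor, and Tnfrsf19 (0.9965). Sdc4 was matched by Foxm1 (0.9953), a transcription factor of the G2 and M phases, the hyaluronan synthase Has2 (0.9949) and the mitotic cyclin Ccnb2 (0.9946). Spry1 was matched by Mapk11 (0.9892), Shmt2 (0.9882) and Mfsd2a (0.9879). Cd34 was matched by F13a1 (0.9734) and Mrc1 (0.9733), both made by tissue macrophages, and by Mir99a (0.962). Vcam1 was matched by Slc16a7 (0.9917), Fabp5 (0.9786) and the macrophage receptor Vsig4 (0.9706). Sdc3 was matched by Camk4 (0.977), Adam23 (0.9735) and Galnt16 (0.9704), and Calcr by Cxadr (0.9786), Crabp2 (0.9781) and Vmn1r43 (0.9709). In Sdc4, Spry1 and Calcr the TUM arrays lie above all arrays off doxycycline, and r reflects that step.

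Beside the 7 genes, 17 other satellite cell surface and adhesion genes were mostly higher in tumour than in control muscle. In TUM against CTL 14 were higher and 1 lower, with a median of 1.69 beside -0.15 over all genes. The adhesion genes Cdh2 (4.36 ± 0.16) and Ncam1 (2.43 ± 0.11) were the most raised and Tenm4 (-0.32 ± 0.09) was lower. In OFF3 against TUM 5 rose and 5 fell, with Cxcr4 (1.08 ± 0.16), a chemokine receptor, and the tetraspanin Cd9 (0.70 ± 0.11) up, and Cdh2 (-1.08 ± 0.16) and the hepatocyte growth factor receptor Met (-1.01 ± 0.09) down. In OFF6 against TUM 4 rose and 5 fell, and 7 and 4 without OFF6 replicate 2. Ncam1 (0.75 ± 0.11) and Cd9 (0.54 ± 0.11) rose most and Met (-1.32 ± 0.09) and Cdh2 (-0.97 ± 0.16) fell most.

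Of 24 satellite cell identity and quiescence genes, 12 rose and 4 fell in OFF3 against TUM (median 0.19), and 6 rose and 7 fell in OFF6 (median -0.09), with 7 and 8 without OFF6 replicate 2. Tek, the angiopoietin receptor of endothelium and resting satellite cells (0.88 ± 0.13), and the cell cycle inhibitor Cdkn1c (0.75 ± 0.15) rose most in OFF3. Tek is itself 1 of the 14 endothelial markers, which rose as given above. Myod1 rose by 0.50 ± 0.17 in OFF3 (adjusted p = 0.0457). In OFF6, Myod1 (1.15 ± 0.17) and the Notch effector Hey1 (0.75 ± 0.10) rose most. Myf5 fell by 0.78 in OFF3 and 0.88 in OFF6 (± 0.08 each), and Pax3, a relative of Pax7 that acts in embryonic muscle, by 0.48 and 0.52 (± 0.11 each). Pax7 differed from TUM by -0.04 ± 0.08 in OFF3 (adjusted p = 0.77) and fell by 0.31 (± 0.08) in OFF6 (adjusted p = 0.0125). In TUM against CTL 13 were higher and 8 lower (median 0.45), with Myf5 and the collagen Col5a2 (2.31 ± 0.11) most raised and Tek (-1.71 ± 0.13) and Bmp6 (-1.71 ± 0.08) lowest.

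Genes that ERK signalling induces, the pathway Spry1 restrains, were mostly higher in TUM than in CTL, and part of them fell off doxycycline. Of 12, 10 were higher and 1 lower in TUM than in CTL (median 1.5), led by Ccnd1 (3.36 ± 0.09) and Fosl1 (3.28 ± 0.20), while Ier3 (-0.20 ± 0.07) was lower. In OFF3 against TUM 7 fell and 1 rose (median -0.43), and in OFF6 6 fell and 2 rose (median -0.32), with 6 and 3 without OFF6 replicate 2. Fosl1 fell by 2.34 and 2.01, and Myc by 1.48 and 1.29, in OFF3 and OFF6. Etv1 (0.31 ± 0.10) rose in OFF3, and Egr1 (0.41 ± 0.11) and Ier3 (0.25 ± 0.07) in OFF6. Cell cycle markers were also higher in TUM than in CTL and fell off doxycycline, as given above. The part of ERK signalling, of Spry1 or of cycling cells in this list was not tested.

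Of 19 measured ligand and partner genes of the 7, 11 rose and 0 fell in OFF3 against TUM (median 0.35), and 8 rose and 0 fell in OFF6 (median 0.19). Without OFF6 replicate 2 these day 6 counts were 4 and 2. The risers included Calcrl (0.46 ± 0.11 in OFF3 and 0.32 ± 0.11 in OFF6), Emcn (0.66 ± 0.10 and 0.29 ± 0.10) and Ramp2, all also made by endothelium, and Podxl in OFF3 (0.20 ± 0.06). Endothelial markers moved with them, 13 of 14 rising in OFF3 and 8 of 14 in OFF6, and their part in the list's rise was not tested. Tnc, the matrix protein tenascin-C, rose most, by 1.66 ± 0.15 in OFF3 and 1.84 ± 0.15 in OFF6, followed by Itga4. In TUM against CTL 7 were higher and 10 lower (median -0.26). The complement gene C1qa (3.04 ± 0.12), whose protein binds Megf10, and Hgf (2.89 ± 0.19), whose protein binds heparan sulphate, were most raised, and the fibroblast growth factors Fgf6 (-2.11 ± 0.09) and Fgf1 (-2.00 ± 0.07) lowest. C1qa is also made by macrophages, whose markers were higher in TUM as given above. Of 12 measured relatives of the syndecan, Sprouty and Megf genes, 4 rose and 1 fell in OFF3 (median 0.18), 4 rose and 3 fell in OFF6 (median 0.11), and 5 were higher and 5 lower in TUM than in CTL (median 0.02). Of these, Megf6 was 0.58 ± 0.17 lower in TUM than in CTL.

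**Figure D4:**
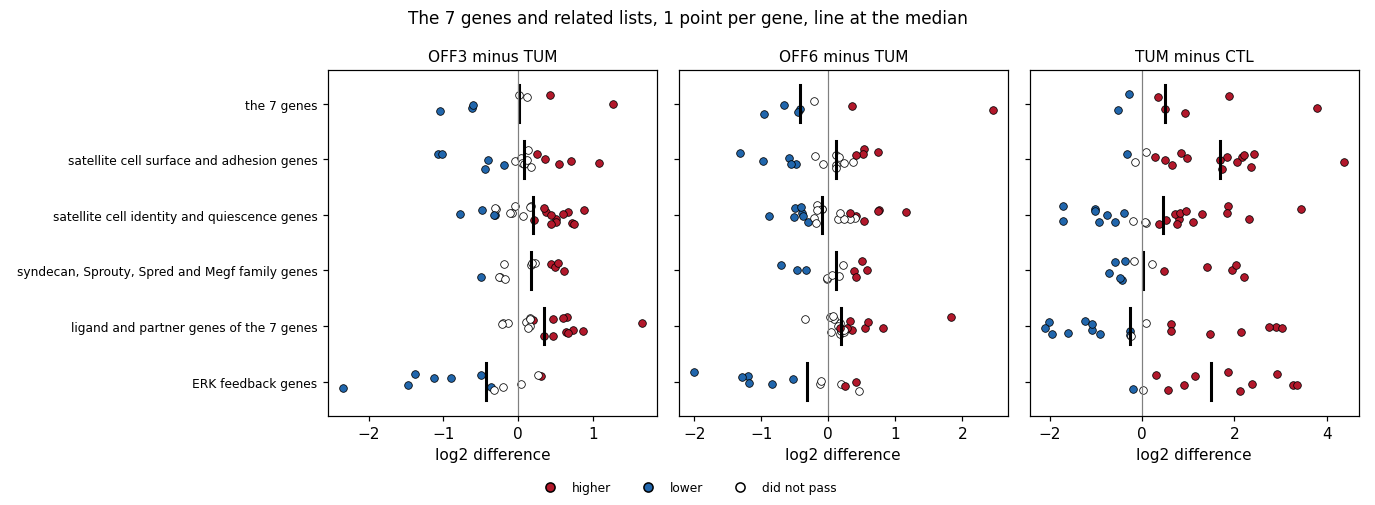
Log2 difference (x axis) of the 7 genes and of 5 lists of related genes (y axis) in 3 comparisons; each point is a gene, filled red where higher and blue where lower past the threshold, and black lines are list medians. ERK-induced genes had medians of -0.43 and -0.32 off doxycycline, and in those 2 comparisons the other medians lay between -0.42 and 0.35. In TUM against CTL they were 1.69 for surface and adhesion genes and 1.5 for ERK-induced genes.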

How the data were processed

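RNA of 3 samples in each of 4 groups was measured on 1-colour Affymetrix mouse arrays. The authors deposited 1 linear intensity per probe set and array, made with RMA (background correction, normalisation and probe summary), per the submitters' processing notes; its version and settings are not given in the sources used here. Probe sets were named through GEO's platform annotation: of 34760, 21640 had 1 gene symbol, 1321 several and 11799 none. Log2 was taken, and for genes with several probe sets (954) the one of highest mean was kept, leaving 19937 genes. The median intensity of an array lay between 86.74 and 93.05; the number of arrays limits precision, and the median standard error of a difference was 0.0863.

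One limma model (3.58.1, R 4.3.3) of 12 arrays gave 6 comparisons. Each gene thus has the same standard error in all of them, and a wide spread in any group enlarges it. Differences are log2 ± standard error, 3 arrays per group, two-sided, with Benjamini-Hochberg adjustment over all genes. The procedure was tested on simulated data. Figures used Python 3.11.15 and matplotlib 3.10.9. The 7 genes and all lists were chosen with earlier results of these data known. Per list and comparison with TUM or CTL, the 2 largest called rises and falls were named, besides Pax7, Myf5 and Myod1, and 3 genes of most similar pattern. Sdc1, Sdc2, Spry2, Spry4, Megf11, Calcrl, Emcn, Podxl and the Ramp genes were named as family or partner genes after their values were seen. Alternatives were median centring, quantile normalisation, array weights, a filter on low genes, another rule for the probe set, a trended robust variance, a replicate block, only the arrays compared, a stricter threshold and each array left out; leaving OFF6 replicate 2 out of the list counts was chosen after seeing the data. Same-numbered arrays were checked for pairing and showed none.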

Additional observations from a re-analysis of the deposited data

How the results depend on the processing

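Of 42 differences of the 7 genes, 23 kept their direction and side of the threshold under all alternatives, and 21 of the 29 called did. Arrays centred on their median turned Vcam1 in OFF3 minus TUM to -0.022, Spry1 in OFF6 minus CTL to -0.138 and Cd34 in OFF6 minus CTL to -0.051. Array weights turned Vcam1 to -0.012 and Cd34 to -0.048 there, and quantile normalisation Spry1 to -0.064. Leaving out arrays in turn gave -0.025 to 0.040 for Vcam1 in OFF3 minus TUM, -0.090 to 0.058 for Sdc4, -0.035 to 0.153 for Spry1 and -0.069 to 0.235 for Cd34 in OFF6 minus CTL, and -0.089 to 0.047 for Calcr in OFF6 minus OFF3. None of these was called. Calls among the 7 in OFF6 minus OFF3 were 5 with array weights, 0 with only the 6 arrays, 1 at adjusted p under 0.01 and 1 to 4 with arrays left out; in TUM minus CTL they were 4 at 0.01 and 4 to 7 with arrays left out, 4 without TUM replicate 3.

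Over all genes, weights called 11175 in OFF3 minus TUM, 10545 in OFF6 minus TUM and 8424 in OFF6 minus OFF3. The last had 30 with only the 6 arrays, 467 at 0.01 and 452 to 4874 with arrays left out, most without OFF6 replicate 2. Testing only genes above the median level gave 8401, 8165 and 7923 calls for TUM, OFF3 and OFF6 minus CTL, fewer genes being tested; Calcr lay below that level and gave no value there. Centring moved the median of all genes in TUM minus CTL to -0.29 (main -0.15) and the higher against lower calls to 4665 and 12243 (main 5657 and 8253) in OFF3 minus CTL and 4486 and 12001 (main 5602 and 7188) in OFF6 minus CTL. The cause of these shifts was not tested.

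With a replicate block, Vcam1 in OFF6 minus OFF3 had adjusted p = 0.0506 and 1 of the 7 passed there. Deviations of same-numbered arrays correlated at -0.39 to 0.25, and arrays correlated best with their own number in 10 of 36 cases, so the numbers are not used as pairs.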
